A study of Mus musculus with 20 samples.

Results

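The Toll-like receptors of mouse macrophages and their co-receptor CD14 are described here in microglia and recruited macrophages of mouse brain tumours. The 10 genes were taken by symbol from the deposited table of raw counts: Tlr1, Tlr2, Tlr3, Tlr4, Tlr6, Tlr7, Tlr8, Tlr9, Tlr13 and Cd14. They are 10 of the 23329 symbols in that table. All 10 passed the filter on low counts, as did 15363 genes in all.

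The study sequenced polyadenylated RNA of sorted myeloid cells in 20 libraries of 6 groups, all from C57BL/6 mice, and compared cells of different origin in different brain tumours. Gliomas of a genetically engineered mouse model (GEMM) were started by intracranial injection of DF1 chicken cells that release the RCAS-PDGFB-HA and RCAS:shP53 viruses in equal parts into Flt3:Cre Rosa26:mTmG mice 6 weeks old. Flt3:Cre acts in blood-forming progenitors, so cells of marrow origin turn from TdTomato to GFP. From each tumour, cells positive for CD45 and CD11b and negative for Ly6C and Ly6G were split into microglia (MG, GFP-negative, TdTomato-positive) and bone marrow-derived macrophages (BMDM, GFP-positive, TdTomato-negative). GEMM MG, GEMM BMDM, GL261 MG and GL261 BMDM had 3 libraries each, and cells outside tumours were normal brain MG (3 libraries) and Ly6C-high blood monocytes (5 libraries). GL261 is a transplantable mouse glioma line. How GL261 tumours were made, whether their hosts carried the reporter, and the age, genotype and sorting gates of the mice that gave normal MG and monocytes are not stated in the labels. All GEMM samples were registered under 1 stretch of sample numbers and all other samples under a later one. Whatever else differs between these sets cannot be told apart from the model where GEMM groups are compared with others. The MG and BMDM libraries of 1 tumour share a number in their titles. Nothing says that each number in the other groups is 1 animal, so the p-values cover the spread between libraries, which may be technical.

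Toll-like receptors are membrane proteins that bind conserved molecules of microbes and of damaged cells and signal through MyD88 or TRIF to NF-kB and interferon regulatory factors. TLR2 with TLR1 or TLR6 reads lipopeptides and TLR4 reads lipopolysaccharide handed over by CD14, all at the cell surface, while TLR3, TLR7, TLR8, TLR9 and TLR13 read nucleic acids in endosomes. Microglia are the resident macrophages of the brain and carry most of these receptors, and CD14 is a classical monocyte and macrophage protein.

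Library totals ran from 18113450 to 36297826 counts in microglia and BMDM and from 5077787 to 7801073 in monocytes. Levels are given as CPM, a count set against the TMM-scaled total of its library. P2ry12 and Tmem119, which mark microglia, were above 0 in every group, and the summed level of 11 microglia markers ran from 36157 ± 2713 CPM (SD, n = 3) for normal MG through 20316 ± 4877 for GEMM MG and 6115 ± 3366 for GL261 MG to 349 ± 58.6 (n = 5) for monocytes. Monocyte libraries carried Xist at 141.8 CPM or more, and all other libraries at 2.88 CPM or less with the Y-linked Ddx3y at 36.3 CPM or more, so sex differs in every comparison with monocytes. Tlr7, Tlr8 and Tlr13 lie on the X chromosome. The part of sex in their values was not tested. Rn45s, a ribosomal RNA gene, made up 13.5% of monocyte library 64820, 14.3% of 64821 and at most 1.62% of any other library. Neutrophil markers summed to between 1859 and 23096 CPM in monocytes and to 2226 CPM in GEMM BMDM 68702. Of this list S100a8 and S100a9 reached at most 32.8 and 111 CPM in GEMM BMDM, beside 4488 and 5094 in monocytes. The list also summed to 595 to 634 CPM in normal MG, so its sum is not specific to neutrophils. In the pooled RNA of a sorted population, fewer cells of a type and less RNA per cell cannot be told apart.

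Some sequences bear on how far the genes can be told apart and compared. Among the 78 pairs that can be formed from these 10 genes and Tlr5, Tlr11 and Tlr12, only Tlr1 and Tlr6 shared a stretch of 50 coding bases. They shared 454 such words, which is 19.4% of those of Tlr1 and 19.2% of those of Tlr6. Their longest common run, printed in the coding direction, is 229 bases long. By the GENCODE vM21 annotation it lies on the minus strand of GRCm38, at chr5:64925537-64925765 in Tlr1 and chr5:64953828-64954056 in Tlr6. Reads from it could be given to either gene or dropped, depending on the counting, so the values of Tlr1 and Tlr6 are uncertain to that extent.
Tlr1 and Tlr6 shared coding run: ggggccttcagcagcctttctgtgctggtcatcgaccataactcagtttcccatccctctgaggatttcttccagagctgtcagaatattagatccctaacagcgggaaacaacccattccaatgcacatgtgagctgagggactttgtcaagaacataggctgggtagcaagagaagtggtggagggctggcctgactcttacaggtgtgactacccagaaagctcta

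Windows before the start site were in the RefSeq table (GRCm38.p6) for 7 of the 9 receptors, and 3 are shown because the results turn on these genes: Tlr8 was near 0 in normal MG, Tlr2 was highest in GEMM MG, and Tlr13 led the receptors per kb of transcript in monocytes. Only the stretch outside annotated exons is printed, 5′ to 3′ on the strand of the gene, and capitals mark matches to 5 short motifs searched on both strands: GAGGAA (core of the PU.1 site), GAAA, any 2 bases and GAAA (IRF pair), TGANTCA (AP-1), GGG, any 3 bases and TTCC (NF-kB), and TTGCNNAA (C/EBP). The Tlr8 window is at chrX:167264330-167264579 (minus strand), the Tlr2 stretch at chr3:83841768-83841858 (minus strand) and the Tlr13 stretch at chrX:106143025-106143228 (plus strand).
Tlr8: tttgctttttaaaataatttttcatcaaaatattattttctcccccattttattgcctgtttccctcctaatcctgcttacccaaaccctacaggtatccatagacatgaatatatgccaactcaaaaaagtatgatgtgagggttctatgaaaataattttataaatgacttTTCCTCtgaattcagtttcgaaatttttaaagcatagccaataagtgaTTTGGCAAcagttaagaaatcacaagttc
Tlr2: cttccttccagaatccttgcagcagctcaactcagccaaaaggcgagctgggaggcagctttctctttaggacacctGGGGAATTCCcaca
Tlr13: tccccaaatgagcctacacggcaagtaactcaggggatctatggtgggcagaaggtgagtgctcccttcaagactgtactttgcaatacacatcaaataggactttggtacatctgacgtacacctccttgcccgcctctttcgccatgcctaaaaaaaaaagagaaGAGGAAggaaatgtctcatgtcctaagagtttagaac

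Tlr8 held the PU.1 core at −77 to −72 before its start and the C/EBP letters at −29 to −22. Tlr2 held NF-kB letters at −173 to −164, and Tlr13 a PU.1 core at −83 to −78. Of 32851 windows of 250 bases before gene starts, 23.3% held the PU.1 core, 9.56% the C/EBP letters and 4.65% the NF-kB letters, and the shares for AP-1 and the IRF pair were 6.75% and 2.98%. The matches do not overlap each other in the 3 stretches shown. They describe letters only.

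Calls were read against those of all 15363 genes, with edgeR's quasi-likelihood test at a Benjamini-Hochberg adjusted p under 0.05. Between BMDM and MG of GEMM tumours 4 of 10 were called (20.8% of all genes): Tlr8 was higher in BMDM (12.7% of all genes were) and Tlr2, Tlr3 and Tlr7 were lower (8.1%). In GL261 tumours 3 of 10 were called (17.5%), Tlr1, Cd14 and Tlr8, all higher in BMDM (10.7%), and 0 were lower (6.81%). The test of the difference between the models called Cd14 alone (1.63% of all genes, 0.605% higher and 1.02% lower). These tests did not pair MG and BMDM of a tumour. With the tumour number as a replicate block the last test called 3 of 10 (1.93% of all genes), given below.

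Against normal MG, 6 of 10 were called in GEMM MG (43.8% of all genes): Tlr1, Tlr2, Cd14 and Tlr8 rose (23%) and Tlr4 and Tlr7 fell (20.9%). In GL261 MG 6 of 10 were called too (57.8%), but Tlr8 alone rose (30.6%), while Tlr6, Tlr4, Tlr3, Tlr7 and Tlr13 fell (27.2%). Summed markers of oligodendrocyte precursors or glioma cells averaged 2.69 CPM in normal MG, 157 in GEMM MG and 545 in GL261 MG. The microglia marker sum was lower in either tumour MG group than in normal MG, as given above. The part of other cells in these falls was not tested. Between MG of the models 7 of 10 were lower in GL261 (15.5%) and 0 higher (18.8%), with 34.3% of all genes called. A dissociation stress list of 10 genes summed to between 25167 and 30919 CPM in normal MG. Its sum was 7271 to 11361 CPM in GEMM MG and 4344 to 8512 in GL261 MG. The part of tissue handling in the differences from normal MG was not tested.

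Against monocytes, Tlr1, Tlr2, Cd14, Tlr3 and Tlr9 rose in GEMM BMDM (31.6% of all genes did) and 0 fell (25.7%), so 5 of 10 were called (57.3%). GL261 BMDM had 8 of 10 called (63%), with Tlr4 added to the 5 that rose (34.1%) and Tlr6 and Tlr7 lower (28.9%). Between BMDM of the models 0 were higher (10.2%) and 0 lower (9.46%), 0 of 10 in all (19.7%), where 0 had an unadjusted p under 0.05 and DESeq2 and limma-voom also called 0. Monocytes differed from normal MG for 9 of 10 (62.8%), Tlr8 being higher (30.4%) and the others but Tlr13 lower (32.4%). The Tlr1 call there (log2 fold change −0.71, adjusted p = 0.0411) was lost without any one of the 8 libraries other than monocyte 64819 (adjusted p 0.0546 to 0.102), and with DESeq2, limma-voom or RLE scaling (0.07 to 0.0974). That of Tlr6 was lost without normal MG 67573 (adjusted p = 0.0618), and both without monocyte libraries 64820 and 64821 (adjusted p = 0.151 and 0.0987).

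Library ranges that did not overlap between the 2 groups were also counted. They were found for 5 of 10 genes between BMDM and MG of GEMM tumours (39.9% of all genes) and 4 of 10 in GL261 tumours (31.4%). Against normal MG they were found for 9 of 10 in GEMM MG (62.2%) and 6 of 10 in GL261 MG (66.5%), and against monocytes for 5 of 10 in GEMM BMDM (51.9%) and 7 of 10 in GL261 BMDM (56.7%). Between models they were found for 6 of 10 in MG (46.9%) and 0 of 10 in BMDM (36.6%), and between monocytes and normal MG for 10 of 10 (61.4%).

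The median log2 fold change of the 10 genes was −0.44 and 0.70 between BMDM and MG of GEMM and GL261 tumours (0.01 and −0.08 over all genes tested). It was −0.16 and −0.78 against normal MG (−0.02 and 0.01), 0.92 and 1.37 against monocytes (0.08 and 0.06) and −1.80 between monocytes and normal MG (−0.01). Nothing is called particular to the 10 genes from these counts.

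**Figure D1:**
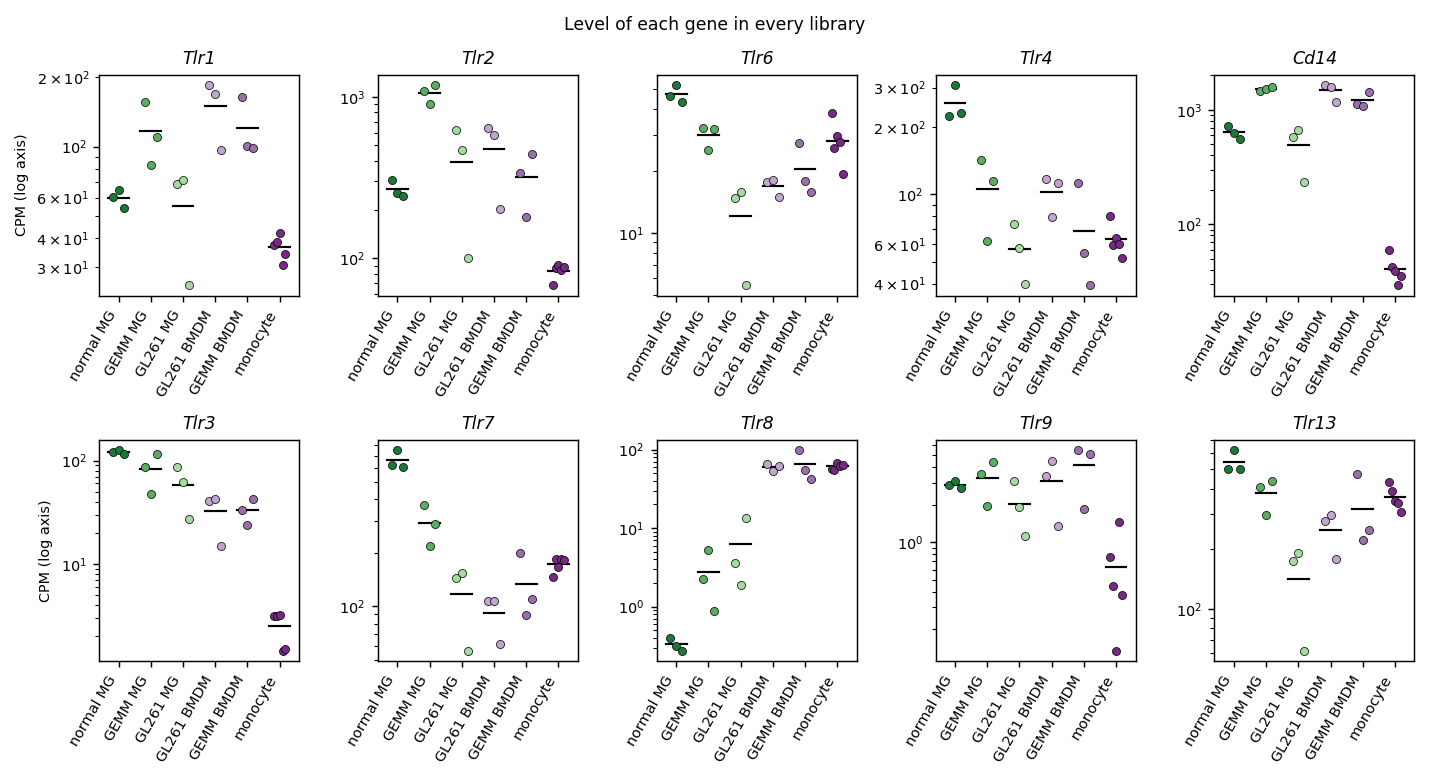
CPM on a log axis (vertical) in each of the 20 libraries by group (horizontal), 1 panel per gene. Points are libraries and bars are group means. Tlr8 stood between 41.9 and 99.0 CPM in all BMDM and monocyte libraries and at 13.6 CPM or less in all MG libraries, and Cd14 and Tlr3 were lowest in monocytes.

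Tlr2, the common partner of the lipopeptide receptors, was highest in microglia of GEMM tumours. It measured 1085, 898 and 1191 CPM in GEMM MG, 622, 465 and 101 in GL261 MG, and 307, 252 and 243 in normal MG. BMDM carried 337, 181 and 442 CPM in GEMM and 645.5, 581.8 and 201.9 in GL261 tumours, and the 5 monocyte libraries lay between 67.8 and 91.2. GEMM MG stood above every other group without overlap, monocytes stood below every other group, and the other 4 groups overlapped with their neighbours in order of mean, from GL261 BMDM through GL261 MG and GEMM BMDM to normal MG.

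Against normal MG, Tlr2 rose in GEMM MG by a log2 fold change of 1.98 ± 0.49 (SE, edgeR adjusted p = 0.00305). In GL261 MG its log2 fold change was 0.57 ± 0.47 (edgeR adjusted p = 0.317). That value was 1.02 (adjusted p = 0.0287) without GL261 MG 80769, which had 101 CPM. Within GEMM tumours Tlr2 was 3.31-fold lower in BMDM than in MG (log2 fold change −1.73 ± 0.48, edgeR adjusted p = 0.0163), and lower in each of 3 tumours. Without GEMM BMDM BB30101 the log2 fold change was −1.48 (adjusted p = 0.088). In GL261 tumours the log2 fold change was 0.27 ± 0.47 (adjusted p = 0.731, and −0.19 without GL261 MG 80769), with the BMDM library higher in each of 3 tumours by 1.04 to 2.00-fold. Against monocytes Tlr2 rose by log2 fold changes of 1.93 in GEMM BMDM and 2.51 in GL261 BMDM (edgeR adjusted p = 0.000692 and 5.08e-05).

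Tlr1, which pairs with TLR2 for triacylated lipopeptides, was highest in tumour BMDM and GEMM MG. GL261 BMDM had 186, 169 and 96.9 CPM, GEMM BMDM 164, 101 and 98.4, and GEMM MG 156, 82.9 and 110. Lower values stood in normal MG (60.2, 65.0 and 54.3), GL261 MG (68.7, 71.6 and 24.9) and monocytes (30.5 to 41.9). The 3 high groups overlapped with each other and with none of the 3 low groups. Tlr1 was 2.74-fold higher in GL261 BMDM than in GL261 MG (edgeR adjusted p = 0.00538, and 0.114 in a fit of those groups alone) and 3.31-fold and 4.13-fold higher in GEMM and GL261 BMDM than in monocytes (adjusted p = 6.49e-05 and 8.82e-06). In GEMM MG it was 1.94-fold above normal MG (adjusted p = 0.0244), a call lost without GEMM MG 68702, normal MG 67572 or normal MG 67574 (adjusted p 0.0613 to 0.124).

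Tlr6, the partner for diacylated lipopeptides, was lower in microglia of GL261 tumours than in normal MG. Normal MG had 46.6, 52.8 and 43.7 CPM of it, GEMM MG 32.4, 25.4 and 32.1, and GL261 MG 14.8, 15.7 and 5.54. These 3 groups did not overlap. Against normal MG the log2 fold change was −1.99 ± 0.31 in GL261 MG (edgeR adjusted p = 3.23e-05) and −0.67 ± 0.30 in GEMM MG (adjusted p = 0.0778). BMDM carried 15.8 to 27.5 CPM in GEMM and 15.0 to 18.1 in GL261 tumours, beside 19.3 to 38.4 in monocytes. GL261 BMDM were 1.67-fold below monocytes (adjusted p = 0.0279), a call lost without any one of the GL261 BMDM libraries or monocyte 64817 (adjusted p 0.0516 to 0.106), or with no filter on low counts (0.0584).

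Cd14, the glycolipid-anchored carrier of lipopolysaccharide, had the largest fold change of the 10 genes between monocytes and BMDM. Monocytes carried 59.3, 42.4, 39.5, 29.3 and 35.3 CPM, GEMM BMDM 1118, 1079 and 1424, and GL261 BMDM 1659, 1587 and 1180. All BMDM libraries lay far above all monocyte libraries. The difference was 29.3-fold in GEMM and 35.8-fold in GL261 BMDM (log2 fold changes 4.87 ± 0.28 and 5.16 ± 0.28, edgeR adjusted p = 2.45e-10 and 1.49e-10, with shared monocyte libraries). Of 10 genes of a dissociation stress list, 8 rose and 0 fell in GEMM BMDM, and 8 rose and 1, Ier2, fell in GL261 BMDM against monocytes (31.6% and 34.1% of all genes rose), and all 10 were lower in monocytes than in normal MG. Monocytes came from blood and the other cells from brain or tumour tissue, so handling of the tissue and the kind of cell cannot be told apart there.

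In microglia Cd14 differed between the models. Normal MG carried 720, 624 and 558 CPM, GEMM MG 1462, 1507 and 1577, and GL261 MG 584, 670 and 236. GEMM MG stood clear of both other groups, which overlapped. Cd14 rose 2.39-fold in GEMM MG (edgeR adjusted p = 0.00233), while its log2 fold change in GL261 MG was −0.35 ± 0.29 (adjusted p = 0.318). GL261 MG were 3.05-fold below GEMM MG (adjusted p = 0.000596).

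Within tumours the 2 models differed in the order of MG and BMDM for Cd14. In GEMM tumours BMDM carried 0.716 to 0.903 times the Cd14 level of MG from the same tumour, and in GL261 tumours 2.37 to 4.99 times that level. GL261 BMDM exceeded GL261 MG 2.97-fold (log2 fold change 1.57 ± 0.30, edgeR adjusted p = 0.00138, and 0.0804 in a fit of those groups alone), and the GEMM log2 fold change was −0.33 ± 0.29 (adjusted p = 0.469). The test of the difference between models gave a log2 value of 1.90 ± 0.42 (adjusted p = 0.0286). It was lost without GEMM MG 68702, GEMM BMDM BB30101, GEMM BMDM BB30105 or GL261 BMDM 80766 (adjusted p 0.052 to 0.0986), and in a fit of only the 4 tumour groups (adjusted p = 0.121). With the tumour number as a replicate block, 3 of 10 were called where 1.93% of all genes were (0.683% higher and 1.25% lower): Cd14, Tlr1 and Tlr2, all with a higher BMDM-to-MG ratio in GL261 (log2 values 2.02, 1.48 and 2.26, adjusted p = 0.0247, 0.0249 and 0.0231).

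**Figure D2:**
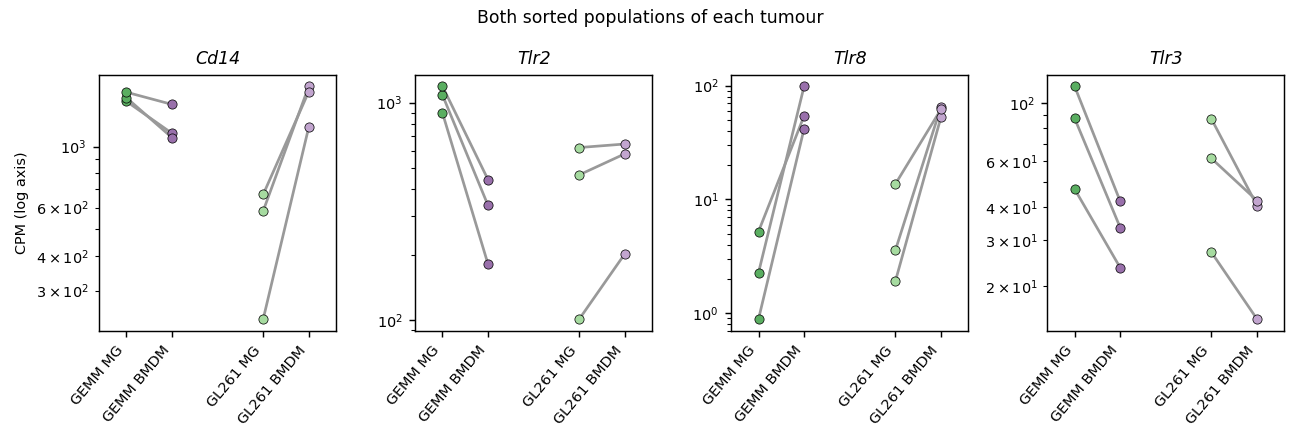
CPM on a log axis (vertical) of Cd14, Tlr2, Tlr8 and Tlr3 in MG and BMDM (horizontal). Lines join libraries that share a tumour number. Cd14 lines fall in the 3 GEMM tumours and climb in the 3 GL261 tumours, Tlr8 lines climb in all 6 and Tlr3 lines fall in all 6.

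Tlr4, the signalling receptor for lipopolysaccharide, was highest in normal MG and lower in tumour MG of either model. Normal MG had 224, 309 and 231 CPM, GEMM MG 142, 61.8 and 115, and GL261 MG 73.6, 57.4 and 39.7. No tumour MG library reached the lowest normal one. Tlr4 fell 2.40-fold in GEMM MG (edgeR adjusted p = 0.0059) and 4.48-fold in GL261 MG (adjusted p = 4.7e-05), 2 comparisons that share the normal MG libraries. In GEMM MG Cd14 rose while Tlr4 fell. Ly96, which encodes the MD-2 subunit of the TLR4 complex, also fell in GEMM MG (log2 fold change −0.73, adjusted p = 0.00562) and in GL261 MG (−1.54, adjusted p = 4.02e-06).

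BMDM carried Tlr4 at 112, 54.8 and 39.2 CPM in GEMM and 117, 79.1 and 112 in GL261 tumours, and monocytes at 51.8 to 80.3. These groups overlapped. The 1.63-fold higher level of GL261 BMDM against monocytes had an edgeR adjusted p of 0.0484, and the call was lost without GL261 BMDM 80766 or 80769 or monocyte 64818, 64819, 64820 or 64821 (adjusted p 0.0707 to 0.16), and with DESeq2, limma-voom, RLE scaling or Rn45s left out (0.0555 to 0.077). GEMM BMDM 68702, which also had the sum of the neutrophil list given above, held the highest of the GEMM BMDM values for 7 of the 10 genes. Without it Tlr4 was lower in GEMM BMDM than in GEMM MG (log2 fold change −1.26, adjusted p = 0.0112).

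Tlr8, an endosomal sensor of RNA breakdown products, stood apart between BMDM or monocytes and all MG. GEMM BMDM carried 99.0, 54.3 and 41.9 CPM, GL261 BMDM 65.2, 52.8 and 62.0, and monocytes 55.8, 54.6, 68.1, 61.9 and 64.4. Normal MG had 0.40, 0.31 and 0.27 CPM, from 12, 8 and 8 counts. Tumour MG lay between, at 2.26, 5.22 and 0.89 CPM in GEMM and 3.56, 1.90 and 13.6 in GL261. BMDM and monocytes overlapped with each other and with no MG library.

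Tlr8 was 22.7-fold higher in BMDM than in MG of GEMM tumours (log2 fold change 4.50 ± 0.61, edgeR adjusted p = 5.07e-05) and 9.36-fold higher in GL261 tumours (3.23 ± 0.57, adjusted p = 0.000742). Tumour by tumour the BMDM level was 43.7, 10.4 and 47.3 times that of MG in GEMM, and 18.3, 27.8 and 4.55 times in GL261. BMDM and monocytes lay close, with log2 fold changes of 0.09 ± 0.46 and −0.02 ± 0.47 (adjusted p = 0.872 and 0.972). The first fold was 39.2 without GEMM MG BB30101 and the second 21.9 without GL261 MG 80769. Between monocytes and normal MG the log2 fold change was 7.50 ± 0.74 (adjusted p = 7.33e-08).

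The low Tlr8 of tumour MG was above that of normal MG in both models (log2 fold changes 3.09 ± 0.72 and 4.25 ± 0.71, edgeR adjusted p = 0.00204 and 6.29e-05). These values were 2.24 without GEMM MG BB30101 (adjusted p = 0.025) and 3.02 without GL261 MG 80769 (adjusted p = 0.000506). The sum of 8 monocyte markers was also higher, at 38.2 to 92.5 CPM in GEMM MG and 53.2 to 117 in GL261 MG. It was 17.3 to 29.7 CPM in normal MG. Ccr2, from this list, was at 10.9, 20.3 and 6.51 CPM in GEMM MG and 4.20, 6.28 and 18.3 in GL261 MG. Normal MG had 7.19, 8.11 and 9.29 CPM of Ccr2, within the range of either tumour group. As a share of the level in BMDM of the same tumour, MG carried 2.29%, 9.60% and 2.11% of Tlr8 in GEMM tumours 68702, BB30101 and BB30105 and 5.46%, 3.60% and 22.0% in GL261 tumours 80766, 80767 and 80769. The same shares for the sum of 8 monocyte markers were 4.83%, 8.13% and 3.94%, and 8.43%, 9.35% and 25.9%. For Ccr2 they were 4.78%, 6.17% and 2.03%, and 1.76%, 7.03% and 14.4%. In both models the MG library with the highest Tlr8 was also that with the highest monocyte marker sum, and the part of BMDM RNA in the Tlr8 of tumour MG was not tested.

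Tlr3, the sensor of double-stranded RNA, was highest in normal MG and close to 0 in monocytes. Normal MG had 122, 127 and 117 CPM, GEMM MG 87.5, 47.0 and 116, and GL261 MG 87.0, 61.5 and 27.0. BMDM had 33.5, 23.6 and 42.2 CPM in GEMM and 40.7, 42.5 and 15.0 in GL261 tumours, while monocytes had 3.14, 3.12, 3.22, 1.44 and 1.50. Every BMDM library stood above every monocyte library and, in the GEMM, below every MG library. Tlr3 was 12.8-fold and 12.7-fold higher in GEMM and GL261 BMDM than in monocytes (edgeR adjusted p = 1.03e-06 and 8.57e-07). Of 8 markers of conventional dendritic cells, 5 were higher in GEMM BMDM than in monocytes, as Tlr3 was. Against GEMM MG 7 of the 8 were higher, while Tlr3 was lower. Their sum was 182 to 565 CPM in GL261 BMDM, 242 to 391 in monocytes and 252 to 305 in GEMM MG. In the GEMM BMDM libraries it was 638, 1159 and 1407 CPM, where Tlr3 was at 33.5, 23.6 and 42.2. In GL261 BMDM 3 of the 8 were higher and 3 lower than in monocytes. The part of such cells in the BMDM values was not tested.

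MG exceeded BMDM for Tlr3 in all 6 tumours, by 2.00 to 2.75-fold in GEMM and 1.45 to 2.14-fold in GL261. The difference was called in GEMM (log2 fold change −1.33 ± 0.41, edgeR adjusted p = 0.0286), a call lost without GEMM MG 68702, GEMM MG BB30105, GEMM BMDM 68702 or GEMM BMDM BB30101 (adjusted p 0.0555 to 0.129) or with no filter on low counts (0.0581). In GL261 the log2 fold change was −0.84 ± 0.41 (adjusted p = 0.169), and −0.83 with the tumour number as a replicate block (adjusted p = 0.00765). Against normal MG, Tlr3 had log2 fold changes of −0.55 ± 0.41 in GEMM MG (adjusted p = 0.291) and −1.06 ± 0.41 in GL261 MG (adjusted p = 0.0344). The second was not called without GL261 MG 80767, GL261 MG 80769 or any one of the normal MG libraries (adjusted p 0.05 to 0.156), with no filter on low counts (0.0744) or in a fit of those groups alone (0.0554). Microglia markers in GEMM BMDM summed to between 3313 and 6872 CPM, beside 14842 to 24201 in GEMM MG. In GL261 tumours they summed to between 893 and 1781 CPM in BMDM and to between 2341 and 8806 in MG, while Tlr3 averaged 32.7 CPM in GL261 BMDM and 33.1 in GEMM BMDM. The part of microglial RNA in the Tlr3 of BMDM was not tested.

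Tlr7, which reads single-stranded RNA, fell in microglia of both tumour models. Normal MG carried 617, 755 and 604 CPM, against 369, 218 and 288 for GEMM MG and 144, 153 and 56.2 for GL261 MG. The 3 groups did not overlap. Tlr7 fell 2.26-fold in GEMM MG (edgeR adjusted p = 0.00842, and 0.0559 without GEMM MG BB30101) and 5.59-fold in GL261 MG (adjusted p = 1.04e-05). BMDM carried 199, 89.5 and 110 CPM in GEMM and 107, 107 and 61.4 in GL261 tumours. In GEMM tumours that was 2.20-fold below MG (adjusted p = 0.0214), a call lost without GEMM MG 68702, GEMM BMDM BB30101 or GEMM BMDM BB30105 (adjusted p 0.0742 to 0.104).

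Monocytes carried Tlr7 at 146 to 185 CPM. GL261 BMDM lay 1.88-fold below them without overlap (edgeR adjusted p = 0.0154, and 0.0966 without GL261 BMDM 80769), and GEMM BMDM overlapped with them (log2 fold change −0.37 ± 0.30, adjusted p = 0.296). Without GEMM BMDM 68702 the latter was −0.82 (adjusted p = 0.0431).

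Tlr13, which reads bacterial ribosomal RNA, was lowest in GL261 MG. Normal MG had 500.4, 624.7 and 502.7 CPM, GEMM MG 407, 296 and 438, and GL261 MG 174, 190 and 61.7. BMDM had 474, 221 and 247 CPM (GEMM) and 275, 294 and 177 (GL261), and monocytes 305 to 431. GL261 MG lay below normal MG and GEMM MG without overlap. The fall against normal MG was 3.83-fold (edgeR adjusted p = 0.000139) and that against GEMM MG 2.68-fold (adjusted p = 0.00409). No other comparison of Tlr13 between 2 groups passed the test with all libraries in 1 fit. Between BMDM and MG of GL261 tumours its log2 fold change was 0.81 ± 0.34 (adjusted p = 0.107), and 0.93 with the tumour number as a replicate block (adjusted p = 0.0324).

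Tlr9, the receptor for unmethylated CpG DNA, had few counts in every group. MG had 3.54, 1.95 and 4.38 CPM (GEMM), 3.09, 1.90 and 1.12 (GL261) and 2.86, 3.09 and 2.71 (normal). BMDM had 5.50, 1.84 and 5.13 CPM (GEMM) and 3.38, 4.48 and 1.35 (GL261). Monocytes had 0.75, 0.45, 0.13, 1.44 and 0.38 CPM, from 6, 3, 1, 7 and 2 counts. Tlr9 was 6.80-fold and 5.02-fold higher in GEMM and GL261 BMDM than in monocytes (edgeR adjusted p = 0.000471 and 0.00187), and GL261 BMDM overlapped with monocytes. Between BMDM and MG its log2 fold changes were 0.34 ± 0.56 and 0.59 ± 0.57.

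Microglia of the 2 models differed for most of the genes. Tlr1, Tlr2, Tlr6, Tlr4, Cd14, Tlr7 and Tlr13 were lower in GL261 MG than in GEMM MG, by 1.86 to 3.05-fold, and Tlr3, Tlr8 and Tlr9 did not pass the test. The median log2 fold change of the 10 genes was −1.19, beside 0.04 over all genes tested. The sum of 5 markers of oligodendrocyte precursors or glioma cells was 363, 489 and 782 CPM in GL261 MG and 127 to 184 CPM in GEMM MG, and the microglia marker sum was lower in GL261 MG, as given above. GL261 MG 80769 was the lowest GL261 MG library for 9 of the 10 genes, with the lowest microglia sum (2341 CPM), the highest precursor or glioma sum and 719 CPM of border-associated macrophage markers, beside 35.4 and 78.5 in the other 2. Without GL261 MG 80769 the calls of Tlr1, Tlr2 and Tlr4 were lost (log2 fold changes −0.73, −0.96 and −0.70, edgeR adjusted p = 0.0647, 0.0761 and 0.189). Tlr1 was also lost without GEMM MG 68702, and Tlr2 and Tlr4 without GEMM MG 68702, GEMM MG BB30105 or GL261 MG 80767 (adjusted p 0.05 to 0.189 over these fits). All 3 were lost in a fit of those groups alone (adjusted p 0.0928 to 0.117), and Tlr2 and Tlr4 with no filter on low counts (0.0516 and 0.0676). Tlr8 was called higher in GL261 MG without GEMM MG BB30101 or GL261 MG 80767 (log2 fold changes 1.92 and 1.59), and was at −0.07 without GL261 MG 80769. The part of other cells in the lower values was not tested.

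BMDM of the 2 models differed for none of the genes with all libraries in the fit. The log2 fold changes of GL261 against GEMM BMDM ran from −0.53 for Tlr7 to 0.58 for Tlr4, with standard errors between 0.29 and 0.56. Without GEMM BMDM 68702 Tlr4 was called (log2 fold change 1.15, edgeR adjusted p = 0.0245). GL261 BMDM 80769 stood apart in its group: it was lowest for 8 of the 10 genes and carried 3640 CPM of border-associated macrophage markers, beside 578 and 489 in the other 2. Without both libraries of tumour 80769 Tlr2 was called higher in GL261 BMDM (0.94, adjusted p = 0.0163). The part of such cells was not tested.

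**Figure D3:**
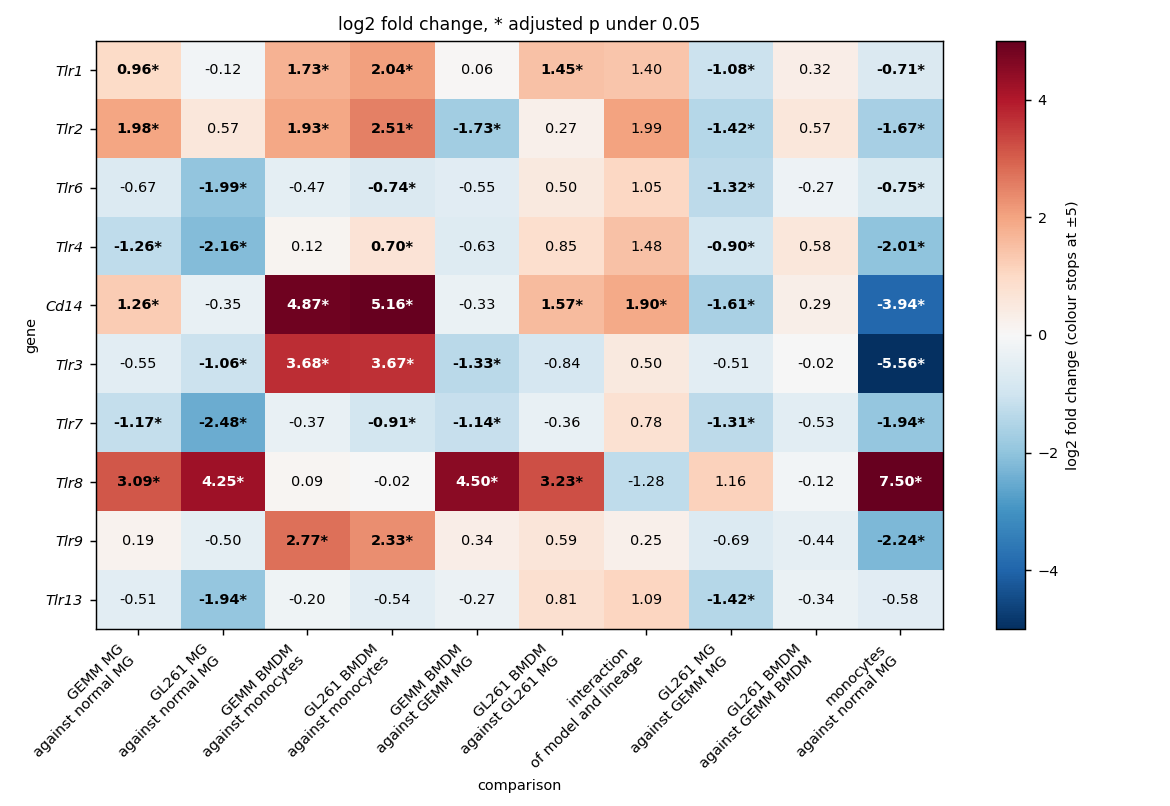
Heat map of log2 fold changes: genes on the vertical axis, comparisons on the horizontal axis, colour from blue (lower in the first-named group) to red (higher). Bold values with a star have an edgeR adjusted p under 0.05. The column of BMDM between models holds 0 stars and that of MG between models 7.

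The gap between lineages inside tumours was then set against the gap between monocytes and normal MG. The test asks whether BMDM and MG differ by as much as monocytes and normal MG do. In GEMM tumours 5 of 10 genes were called, where 38.9% of all genes were (22.1% higher and 16.8% lower). Cd14, Tlr3, Tlr9 and Tlr4 had higher BMDM-to-MG ratios than the cells outside tumours (log2 differences 3.61, 4.23, 2.58 and 1.38), and Tlr8 a lower one (−2.99 ± 0.87, edgeR adjusted p = 0.0108). The Tlr4, Tlr8 and Tlr9 calls were lost without GEMM MG BB30101 (log2 differences 1.05, −2.18 and 2.26, adjusted p = 0.0793, 0.0578 and 0.0547). Tlr4 was also lost without GEMM BMDM 68702 (log2 difference 0.78, adjusted p = 0.134), without normal MG 67573 (adjusted p = 0.0747) and without monocyte libraries 64820 and 64821, those high in Rn45s (1.27, adjusted p = 0.057). The Tlr8 call was lost with limma-voom (−2.82, adjusted p = 0.0685). In GL261 tumours 10 of 10 were called, where 44.2% of all genes were (23.1% higher and 21.2% lower): 9 higher, with log2 differences from 1.25 for Tlr6 to 5.51 for Cd14, and Tlr8 lower (−4.27 ± 0.86, adjusted p = 0.000603, and −3.02 without GL261 MG 80769). Tlr2 was at 1.69 without GL261 BMDM 80766 (adjusted p = 0.055), and Tlr13 at 1.29 without monocyte libraries 64820 and 64821 (adjusted p = 0.05), so neither passed there. These 2 tests share the monocyte and normal MG libraries, and sex and blood against tissue stand with lineage in both.

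The make-up of the receptor transcripts also differed between cells in and outside tumours. On CPM per kb of exon length, the 4 surface receptors Tlr1, Tlr2, Tlr4 and Tlr6 made up 33.9% ± 2.20 (SD, n = 3) of the summed level of the 9 receptors in normal MG and 28.0% ± 1.26 (n = 5) in monocytes. In tumours their share was 69.1% ± 1.74 (GEMM MG), 54.5% ± 7.57 (GEMM BMDM), 64.2% ± 7.67 (GL261 MG) and 66.3% ± 5.47 (GL261 BMDM, n = 3 each). The lowest tumour library, at 48.4%, stood above the highest library outside tumours, at 36.3%. Among its members, Tlr2 made up 15.2 to 21.1% in normal MG libraries and on average 58.5% and 49.9% in GEMM and GL261 MG, and Tlr1 3.87%, 6.12% and 7.69%. The shares of Tlr4 were 9.37%, 3.14% and 5.19% and those of Tlr6 2.62%, 1.36% and 1.43%, lower in tumour MG than in normal MG. A share within a library does not depend on its scaling.

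The order of receptors per kb changed with it. Tlr13 led in monocytes (89.1 CPM per kb, from 75.2 to 106 over 5 libraries) with Tlr7 next (43.4 ± 4.22), and in normal MG the leaders were Tlr7 (166 ± 21.1) and Tlr13 (134 ± 17.5). In all 4 tumour groups Tlr2 led the receptors, from 106 ± 43.7 CPM per kb in GEMM BMDM to 351 ± 49.2 in GEMM MG. Cd14 exceeded every receptor per kb in the 5 groups other than monocytes, at 303 to 924 CPM per kb by group mean, and stood at 25.1 ± 6.87 in monocytes.

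**Figure D4:**
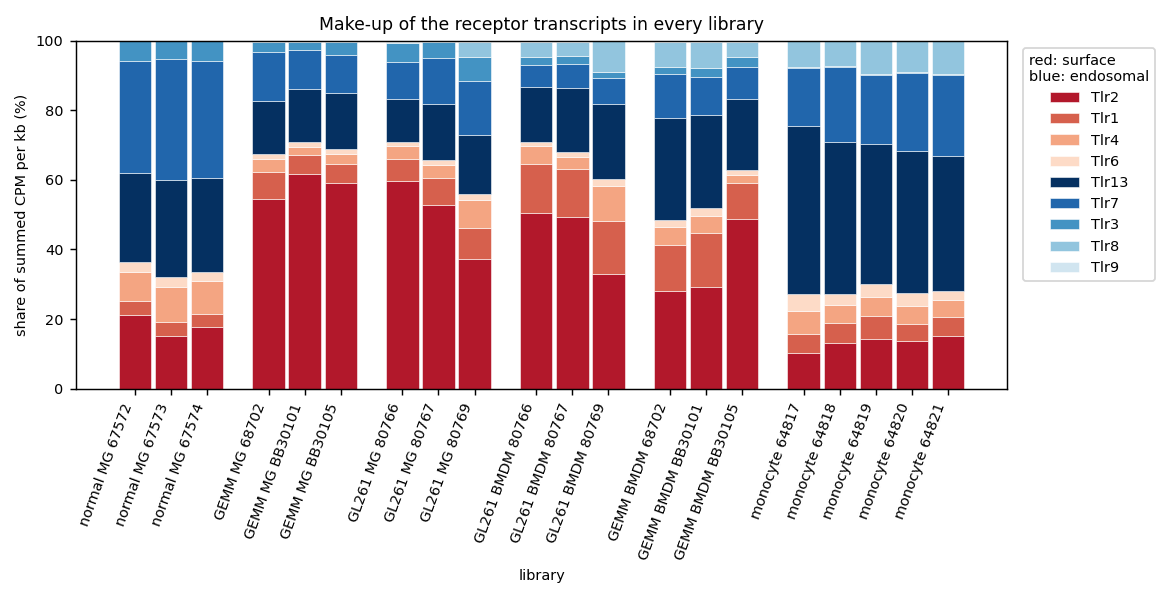
Share (vertical, percent) of each of the 9 receptors in their summed CPM per kb of exon length, 1 bar per library (horizontal), ordered by group. Red shades are surface receptors and blue shades endosomal ones. Surface receptors fill 27.1 to 36.3% of the bars of normal MG and monocytes and 48.4 to 71.0% of those of tumour cells.

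The other 3 mouse receptors had patterns of their own. Tlr5, the flagellin receptor, fell from 15.8 ± 1.69 CPM in normal MG to 1.05 ± 0.30 in GEMM MG and 1.15 ± 0.45 in GL261 MG (edgeR adjusted p = 4.05e-08 and 2.31e-08). Tlr12, a receptor for profilin of protozoa, stood at 3.67 ± 0.91 CPM in monocytes and at 108 ± 48.6 and 108 ± 73.1 CPM in GEMM and GL261 BMDM, 28.8-fold and 28.9-fold higher (adjusted p = 2.06e-06 and 1.61e-06). Tlr11 was higher in BMDM than in MG by 12.3-fold in GEMM and 4.44-fold in GL261, with group means of 0.341 to 7.64 CPM. They are outside the 9 receptors whose shares are given above. Per kb Tlr12 stood at 34.0 and 34.1 CPM in GEMM and GL261 BMDM, beside 33.5 and 23.1 for Tlr7, and at 1.16 in monocytes. The shares therefore depend on leaving it out.

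Some of the genes went together over the 20 libraries. The highest correlation of log2 CPM among the 10 was that of Tlr6 with Tlr13 (Pearson r = 0.96), then Cd14 with Tlr3 (0.86), Tlr6 with Tlr7 (0.85) and Tlr2 with Cd14 (0.85). Tlr8 ran against Tlr7 (r = −0.74), Tlr3 (−0.73) and Tlr4 (−0.64). Among all genes tested, those most like each gene included Ahr and Adam19 for Tlr8 (0.98 and 0.98), Bcl2a1b and Ccrl2 for Cd14 (0.98 and 0.98), Mbip for Tlr7 (0.98), Slc23a2 for Tlr3 (0.98), Tifa for Tlr13 (0.97), Rnf103 for Tlr4 (0.93) and Igfbp3 and Fcgr1 for Tlr2 (0.92 and 0.92). Ahr, the aryl hydrocarbon receptor, followed Tlr8 from 0.61 CPM in normal MG to 155 in GEMM BMDM. The libraries share their 6 groups, so these values describe the pattern over groups.

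The rest of the pathway was followed in 67 genes of co-receptors, chaperones, adaptors, kinases, transcription factors, negative regulators and induced targets. In GEMM MG against normal MG 23 rose and 20 fell (23% and 20.9% of all genes did), and in GL261 MG 17 rose and 27 fell (30.6% and 27.2%). Of 17 induced targets 13 rose in GEMM MG and 10 in GL261 MG, among them Ccl5, a chemokine (log2 fold changes 6.69 and 6.98), with a list median of 3.25 and 1.82 beside −0.02 and 0.01 over all genes tested. Of 18 kinases and ubiquitin ligases 9 fell in GEMM MG and 10 in GL261 MG, Traf6 and Ikbkb among them, and 2 rose in each, Ikbke and Traf3. Of 6 transcription factors Irf7 alone rose (log2 fold changes 4.09 and 4.94), while Nfkb1 fell (−1.30 and −2.33). Of 9 co-receptors and chaperones 4 rose and 2 fell in GEMM MG and 2 rose and 4 fell in GL261 MG, of 6 adaptors 1 and 2 fell, and of 11 negative regulators 3 rose and 3 fell in GEMM MG and 2 rose and 5 fell in GL261 MG. Of the 10 dissociation stress genes, 8 and 9 fell in the same comparisons, and the part of tissue handling was not tested there either.

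In GEMM BMDM against monocytes 25 of the 67 rose and 15 fell (31.6% and 25.7% of all genes did), and in GL261 BMDM 21 rose and 22 fell (34.1% and 28.9%). Induced targets rose in 14 and 13 of 17, with Cxcl2 at 6.23 and 6.11 on the log2 scale, and none fell. Most dissociation stress genes rose in the same comparisons, as given with Cd14. Handling of the tissue and the kind of cell cannot be told apart here either. Of 11 negative regulators 4 rose and 4 fell in GEMM BMDM and 3 rose and 6 fell in GL261 BMDM (list medians −0.15 and −0.54). Tnfaip3, Socs1 and Zc3h12a rose in both (Tnfaip3 by 4.10 and 3.39), and Irak3, Nrros, Rnf216 and Tnip1 fell in both (Irak3 by a log2 fold change of −2.04 and −2.08). Il1rl1 also rose in GEMM BMDM, and Sigirr and Cyld also fell in GL261 BMDM. The adaptor Tirap and the kinase Ikbkb fell, and Myd88, the adaptor of most receptors, did not pass the test in either.

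Between BMDM and MG 13 of the 67 were higher and 7 lower in GEMM (12.7% and 8.1% of all genes were), and 18 higher and 5 lower in GL261 tumours (10.7% and 6.81%). In both models Irak4, Traf6, Ikbkb, Irf7, Rel, Irak3, Il10 and Cxcl2 were higher in BMDM, and Tnf, Ccl3, Ccl4 and Sarm1 were higher in MG. Il10, an anti-inflammatory cytokine, was at 7.75 CPM in GEMM BMDM against 0.86 in GEMM MG and at 13.1 against 0.76 in GL261. Tnf was at 63.8 CPM in BMDM against 361 in MG of GEMM tumours and at 28.4 against 171 in GL261. The test of the difference between models called 2 of the 67, Chuk and Sigirr, both with a lower BMDM-to-MG ratio in GL261. Unc93b1, the chaperone that carries the endosomal receptors, was called neither in GEMM nor in GL261 between BMDM and MG.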

How the data were processed

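RNA of 20 sorted cell libraries was sequenced from Smart-Seq libraries, per the labels' protocols. The authors deposited a table of raw read counts per gene symbol. Tools listed in the submitters' processing notes are STAR 2.5.0e, CASAVA 1.8, DESeq2 and HTSeq, on mm10, without saying what each did. Which annotation was counted, and whether by strand, they do not say. Groups came from the labels, and every per-sample column was used.

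Genes were kept by edgeR's filter (at least 10 counts at the median library size and 15 in all). All 6 groups were fitted together in edgeR 4.0.16 (R 4.3.3, TMM scaling, quasi-likelihood test), each comparison as a contrast, with Benjamini-Hochberg adjustment over the 15363 genes and calls at an adjusted p under 0.05. By gene, plain CPM were 0.881 to 0.923 times the TMM-scaled values in GEMM groups and 1.21 to 1.25 times in GL261 MG. Alternatives were DESeq2 1.42.0, limma-voom (limma 3.58.1), RLE scaling, no filter, only the groups compared, Rn45s left out, each library left out, monocyte libraries 64820 and 64821 left out, and a replicate block. Leaving out both libraries of tumour 80769 was chosen after seeing the data. The steps were tested on simulated data. Tables and figures were made with Python 3.11.15, pandas 2.3.3 and matplotlib 3.10.9.

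Deviations from the group mean correlated between MG and BMDM of the same title number with r from 0.20 to 0.39 in all 6 tumours, so the numbers were taken to pair the samples, as the design text's matched cells from each tumour do. No 2 libraries of a group agreed within sampling noise (lowest chi-square per degree of freedom 3.08, for monocytes 64818 and 64819). That of monocytes 64820 and 64821 was 3.96, beside 32.6 or more for all other monocyte pairs and 17.8 or more in other groups. The 5 monocyte libraries may therefore not be 5 independent samples.

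The 10 genes and the lists were chosen with earlier results of these data known. The text names the 10 genes, up to 2 called genes per pathway list, direction and comparison with the smallest p, and the genes most correlated with each of the 10. Further pathway genes called in both models were named after their values were seen. Acod1 and Nrros stand in the table under older names. Sequences came from RefSeq (GRCm38.p6) and GENCODE vM21, and exon lengths for values per kb from the latter.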

Additional observations from a re-analysis of the deposited data

Results flagged for a closer look

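Among 10 groups of 5 monocyte libraries, 1 for each gene, 1 held a library far from the rest: Tlr2 stood at 67.8 CPM in monocyte 64817, below the other 4. Chance gives about 1 such group in 20 where the 5 values are independent. Monocytes 64818 and 64819 lay close to each other, as did 64820 and 64821 (chi-square per degree of freedom 3.08 and 3.96). That rate may therefore not hold here.

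The BMDM-to-MG difference of Cd14 differed between the GL261 and GEMM tumours by 1.90 on the log2 scale. The difference between lineages inside GEMM tumours departed from that between monocytes and normal MG, on the log2 scale, by 1.38 for Tlr4, 3.61 for Cd14, 4.23 for Tlr3, −2.99 for Tlr8 and 2.58 for Tlr9. Inside GL261 tumours it departed by 2.16 for Tlr1, 1.94 for Tlr2, 1.25 for Tlr6, 2.86 for Tlr4, 5.51 for Cd14, 4.72 for Tlr3, 1.58 for Tlr7, −4.27 for Tlr8, 2.83 for Tlr9 and 1.40 for Tlr13. Each passed edgeR's quasi-likelihood test of the difference itself, with all libraries in 1 fit, and the alternatives that ended a call are given with these values in the report.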

How the results depend on the processing

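Of 1870 recomputed values, 1722 kept their direction and their side of the threshold, 84 lost a call, 24 gained one and 40 changed sign, all 40 on values that had not passed the test. The count of the 10 genes called for the difference between models was 1 with all libraries in 1 fit, 4 by DESeq2, 0 with only the groups compared, 3 with the replicate block that pairs MG and BMDM of a tumour, and 2 without tumour 80769. Over all genes that test called 250, beside 793 by DESeq2, 156 with no filter and 21 with only the groups compared. Between BMDM and MG of GL261 tumours, 3 of the 10 were called, 1 with only the groups compared (Tlr8, with Cd14 at an adjusted p of 0.0804 and Tlr1 at 0.114, of 833 genes against 2692) and 5 with the replicate block (adding Tlr3 and Tlr13). The block changed no other call among the 10 in the paired comparisons but those of Tlr1 and Tlr2 given in the report. With only the groups compared, 4 of the 10 rather than 7 were called between MG of the 2 models, and 1765 genes rather than 3027 between BMDM, where 1 of the 10 was called without tumour 80769 (Tlr2, 0.94). The cause was not tested. Leaving out 1 library at a time gave 1 to 4 calls among the 10 between BMDM and MG of GEMM tumours (2001 to 2902 genes), 0 to 2 for the difference between models (102 to 459 genes), 1695 to 2550 genes between BMDM and MG of GL261 tumours, 4 to 8 between MG of the models, 0 to 1 between BMDM of the models, 5 to 7 between GL261 BMDM and monocytes and 2 to 5 for the GEMM lineage gap against that outside tumours. Sign changes on the log2 scale were as follows. Tlr1 between BMDM and MG of GEMM tumours was at −0.011 by DESeq2, −0.011 with RLE scaling and −0.030 without Rn45s. Tlr8 in GEMM BMDM against monocytes was at −0.025 by DESeq2 and −0.024 with RLE, and Tlr4 there at −0.025 by limma-voom. Tlr3 between BMDM of the models was at 0.0057 by DESeq2, 0.0053 with RLE, 0.0052 with only the groups compared and 0.33 without tumour 80769. With no filter, Tlr8 in GL261 BMDM against monocytes was at 0.056 and Tlr2 for the GEMM lineage gap at 0.042. Without tumour 80769, Tlr1 in GL261 MG against normal MG was at 0.23 and Tlr8 between MG of the models at −0.077. With 1 library left out, values that crossed 0 ranged as follows: between BMDM and MG of GEMM tumours, Tlr1 from −0.30 to 0.24 and Tlr9 from −0.011 to 0.66; in GEMM MG against normal MG, Tlr9 from −0.050 to 0.48; in GEMM BMDM against monocytes, Tlr4 from −0.46 to 0.45, Tlr8 from −0.37 to 0.38 and Tlr13 from −0.66 to 0.035; between BMDM of the models, Tlr6 from −0.47 to 0.024, Tlr3 from −0.25 to 0.29, Tlr8 from −0.39 to 0.34 and Tlr13 from −0.57 to 0.11. For the GEMM lineage gap, Tlr6 ranged from −0.13 to 0.37, Tlr13 from −0.17 to 0.51 and Tlr2 from −0.35 to 0.24. Tlr9 for the difference between models ranged from −0.12 to 0.67, Tlr2 between BMDM and MG of GL261 tumours from −0.19 to 0.69, Tlr1 in GL261 MG against normal MG from −0.36 to 0.23, Tlr8 between MG of the models from −0.073 to 1.92 and Tlr8 in GL261 BMDM against monocytes from −0.11 to 0.053. Depth limits Tlr9 in monocytes (1 to 7 counts) and Tlr8 in normal MG (8 to 12 counts).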
